A study of Mus musculus with 7 samples.

Results

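Cd24a, Cd44, Cd27, Cd7, Ly6c1, Ly6c2 and Ly6d code for surface proteins by which developing T cells are staged and sorted, and their transcripts were followed here through 7 sorted subsets of mouse thymocytes. The 7 genes were taken by symbol from the 32286 features of the count files. They were measured in 71081 of 90016 cell barcodes, those with at least 200 detected genes, at most 15% mitochondrial UMIs and at most 1 UMI of the B cell genes Cd79a, Cd79b and Ms4a1 together. A UMI (unique molecular identifier) stands for 1 counted transcript molecule. Levels are given as CPM, the UMIs of a gene summed over the thymocyte barcodes of a library and scaled to the same total of UMIs in every library.

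All mice were C57BL/6, and single cells were captured with the 10x 3′ v3 chemistry. The thymi behind 5 libraries came from WT mice of both sexes aged 6 to 8 weeks, and were pooled and depleted of CD4+ and CD8+ cells with beads. WT DN3a cells (CD25+ CD44-) are precursors that have not yet passed selection for a T-cell receptor (TCR), and CD71 separated them from DN3b γδ- cells, which have been selected on the αβ path. DN4 γδ- cells (CD71+ CD25-, described in the study as CD44+) follow on that path. DN3b γδ+ and DN4 γδ+ cells carried TCRδ and CD3, were gated as CD24+ CD44low, and were CD25+ and CD25-, respectively. The other 2 libraries, DN3 γδ- and DN3 γδint (cells with an intermediate amount of γδ TCR), came from pooled thymi of Lat-/-TCRd-H2BEGFP mice, which lack the TCR signalling adaptor LAT and carry a fluorescent reporter in Trdc. They were sorted from total thymocytes and are called Lat-KO γδ- and Lat-KO γδint below. The age of the Lat-KO mice is not given in the sources used here. To every library 500 splenic B cells had been added. With a single library for each group, no difference below has a replicate check and no test was run. The 95% intervals cover counting error only. Genotype, reporter and bead depletion cannot be told apart in any comparison of a Lat-KO with a WT library, and a gate on CD24 or CD44 limits what Cd24a and Cd44 can show among the cells it let through.

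CD24 is a small glycosylated protein on immature thymocytes that is lost as γδ thymocytes mature. CD44, a receptor for hyaluronan, marks the earliest thymocytes and, later, activated cells. CD27 is a costimulatory receptor of the tumour necrosis factor receptor family that binds CD70, and among γδ T cells it marks those able to make interferon-γ. CD7 is an immunoglobulin-family protein of T and NK cells. Ly6c1, Ly6c2 and Ly6d belong to a family of small lipid-anchored proteins. Ly6C proteins mark memory T cells and monocytes, and Ly6D marks B-cell-committed lymphoid progenitors and B cells.

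The libraries held 8275 to 20946 barcodes and 49407750 to 375688164 UMIs, and 5274 to 18515 barcodes per library were taken as thymocytes. At least 1 UMI of Cd3d, Cd3e or Cd3g was found in 97.4% to 100% of them, and 10 T cell markers summed to 6911 to 13661 CPM. Lat was at 357 to 648 CPM in the WT libraries, at 4.83 CPM in Lat-KO γδ- and at 0.899 CPM in Lat-KO γδint. The limit on B cell UMIs removed 3.36% to 16.9% of the barcodes that passed the quality filter although they carried CD3 UMIs, and 90.7% to 98.2% of their B cell UMIs were of Cd79b. Of 89086 distinct barcode sequences, 925 occurred in 2 or more libraries. Lat-KO γδint stood apart in its share of ribosomal-protein UMIs, which was 18.1% of the thymocyte UMIs against 27.6% to 33.7% in the other 6 libraries, and 19.9% in its B cells. Its ratios below are also given after trimmed-mean (TMM) scaling where that changed a call. Markers of other cell types summed to 104 to 274 CPM for B cells (10 of 10 with UMIs, Ighm on top), 7.45 to 336 CPM for NK cells (1 to 4 of 5, Nkg7 on top), 43.3 to 119 CPM for plasmacytoid cells (3 to 4 of 5, Tcf4 on top) and 0.149 to 169.6 CPM for erythroid cells (Hbb-bs on top). Barcodes with at most 1 UMI of 10 cell cycle genes, counted after thinning to 4000 UMIs, were 94.4% of DN3a, 4.88% of DN3b γδ-, 4.24% of DN4 γδ-, 9.44% of DN3b γδ+, 72.7% of DN4 γδ+, 90.5% of Lat-KO γδ- and 59.3% of Lat-KO γδint. Levels in these barcodes are given below as levels in non-cycling cells.

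In GENCODE vM21 (GRCm38, the same assembly as mm10), all 7 genes are protein-coding. Cd24a (ENSMUSG00000047139) lies at chr10:43578284-43584265 on the plus strand. The other 6 lie on the minus strand, Cd44 (ENSMUSG00000005087) at chr2:102811141-102901665, Cd27 (ENSMUSG00000030336) at chr6:125232622-125237010, Cd7 (ENSMUSG00000025163) at chr11:121036747-121039418, and the 3 Ly6 genes close together at chr15:74762056-74763620 for Ly6d (ENSMUSG00000034634), chr15:75044018-75048830 for Ly6c1 (ENSMUSG00000079018) and chr15:75108158-75111970 for Ly6c2 (ENSMUSG00000022584). Ly6c1 and Ly6c2 are near-copies. Of all stretches of 57 bases, the length of the sequenced read, 19.1% of those in Ly6c1 transcripts also occur in Ly6c2 and 9.47% in Ly6a, while 12.3% of those in Ly6c2 occur in Ly6c1, and 29.8% within the last 500 bases where 3′ reads fall. Reads of these genes could thus be lost or split, and their levels are uncertain to that extent. The shared part was 2.20% for Cd24a (with Gm6212) and 3.01% for Cd27 (with Mir8113), and no such stretch of Cd44, Cd7 or Ly6d transcripts occurred in another gene.

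Cd24a, the marker of immature thymocytes, was highest in the Lat-KO and DN3a libraries and lowest in DN4 γδ+. Its level was 526 CPM for DN3a (95% interval 519.8 to 532), 348 for DN3b γδ-, 248 for DN4 γδ-, 212 for DN3b γδ+, 113 for DN4 γδ+ (111 to 116), 577 for Lat-KO γδ- and 476 for Lat-KO γδint. The highest and the lowest library differed 5.09-fold, and no 2 neighbours in this order had intervals that met. It was thus lower in DN4 than in DN3b cells on both paths. The cell cycle moved with these values. In non-cycling cells Cd24a was at 398 CPM in DN3b γδ+ and 449 in DN3b γδ-, against 528 in DN3a, while DN4 γδ+ stayed at 108 and DN4 γδ- at 282. The part of cycling in the DN3b values was not tested. The spiked B cells, defined below, held 242 CPM of Cd24a in DN3a, 364 in DN3b γδ- and 292 in DN4 γδ-. They held 210 in DN3b γδ+, 187 in DN4 γδ+, 374 in Lat-KO γδ- and 410 in Lat-KO γδint. The log2 ratio of DN3b γδ+ over DN3b γδ- was -0.80 in B cells and -0.71 in thymocytes. That of DN3b γδ- over DN3a was 0.59 in B cells and -0.60 in thymocytes. The part of library-wide shifts in these values was not tested.

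Ly6d was highest in DN3a and lower at each step of the γδ path. It was at 2377 CPM for DN3a, 783 for DN3b γδ-, 692 for DN4 γδ-, 279 for DN3b γδ+, 28.8 for DN4 γδ+, 1978 for Lat-KO γδ- and 1013 for Lat-KO γδint. DN3a exceeded DN4 γδ+ 82.6-fold, and again no neighbouring intervals met. The spiked B cells of the same libraries, taken as barcodes with at least 10 UMIs of the B cell genes and at most 2 of the CD3 genes, held 2010 to 2903 CPM of Ly6d. In DN4 γδ+ the thymocyte level was 1.13% of the B cell level for Ly6d, against 0.127% for Cd74, 0.112% for H2-Aa, 0.102% for Iglc2 and 0.331% for Ighd, which are B cell genes. In non-cycling cells Ly6d was at 655 CPM in DN3b γδ+ and at 13.0 CPM in DN4 γδ+. The plasmacytoid markers were highest in the same 3 libraries as Ly6d, at 105.5 CPM in DN3a, 119 in Lat-KO γδ- and 108 in Lat-KO γδint against 43.3 to 60.6 CPM in the other 4. Tcf4 gave 34.4 to 107 CPM of these sums, while the defining markers Siglech and Klk1 were at 0 to 3 UMIs and at 0 UMIs in every library.

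Cd27 had the opposite order on the γδ path. Its level was 201 CPM for DN3a, 105 for DN3b γδ-, 84.3 for DN4 γδ-, 293 for DN3b γδ+, 431 for DN4 γδ+, 221 for Lat-KO γδ- and 209.8 for Lat-KO γδint, with no neighbouring intervals that met. The γδ+ libraries were thus the 2 highest and the cycling γδ- libraries the 2 lowest, 5.12-fold apart at the extremes, and the Lat-KO libraries lay close to DN3a. In B cells Cd27 was at 13.6 to 62.5 CPM. Among non-cycling cells it was at 149 CPM for DN3b γδ-, 146 for DN4 γδ-, 362 for DN3b γδ+ and 488 for DN4 γδ+, so that Cd27 was still higher on the γδ path.

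Cd7 was near the limit of detection everywhere but in DN4 γδ+. It was at 0.614 CPM for DN3a, 0.216 for DN3b γδ-, 0.723 for DN4 γδ-, 1.27 for DN3b γδ+, 76.6 for DN4 γδ+ (74.5 to 78.6), 1.47 for Lat-KO γδ- and 0.846 for Lat-KO γδint. DN4 γδ+ exceeded the lowest library 355-fold, with a log2 ratio of 8.47 (8.14 to 8.83). Among the other 6 libraries the order could not be read closely, since the intervals met between the second and the sixth library of the order. The B cells held no Cd7 UMI in 6 libraries and 3 UMIs, 5.51 CPM, in DN4 γδ+.

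Cd44 was low in all 7 libraries and was highest in DN4 γδ+. It was at 0.409 CPM for DN3a, 0.472 for DN3b γδ-, 0.382 for DN4 γδ-, 1.83 for DN3b γδ+, 12.6 for DN4 γδ+ (11.8 to 13.5), 0.239 for Lat-KO γδ- and 0.687 for Lat-KO γδint. The 5 libraries without a γδ+ label had intervals that met in turn. DN4 γδ-, the library described as CD44+, did not stand above DN3a or DN3b γδ-. B cells, which carry CD44, held 11.9 to 46.1 CPM.

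Ly6c1 stood out in the Lat-KO libraries and was lowest in DN3b γδ+. Its level was 11.7 CPM for DN3a, 5.61 for DN3b γδ-, 3.997 for DN4 γδ-, 1.47 for DN3b γδ+, 8.08 for DN4 γδ+, 52.4 for Lat-KO γδ- (50.5 to 54.5) and 28.4 for Lat-KO γδint (26.7 to 30.1). No neighbouring intervals met, and the extremes differed 35.7-fold. In non-cycling cells Ly6c1 was at 12.1 CPM for DN3a, 12.6 for DN3b γδ- and 10.9 for DN4 γδ-, so that these 3 lay close together there, and at 55.2 for Lat-KO γδ-. Ly6c2 was at 0.0558 CPM (3 UMIs) for DN3a, 0.0650 for DN3b γδ-, 0.0657 for DN4 γδ-, 0.363 for DN3b γδ+, 4.35 for DN4 γδ+, 0.0596 (3 UMIs) for Lat-KO γδ- and 0.264 for Lat-KO γδint. It was therefore highest in DN4 γδ+ and close to absent in the library where Ly6c1 was highest, with a ratio of DN4 γδ+ over DN3a of 6.28 on the log2 scale (4.72 to 8.57). The B cells of the DN4 γδ+ library held 18.4 CPM of Ly6c2. Summed, Ly6c1 and Ly6c2 were at 52.5 CPM in Lat-KO γδ- and 12.4 CPM in DN4 γδ+, which met the 11.7 CPM of DN3a within their intervals. The myeloid gene Lyz2 was detected in 25.8% of the barcodes of Lat-KO γδ-, 20.1% of Lat-KO γδint and 12.9% of DN3a. These were the 3 libraries with the most Ly6c1. In the other libraries Lyz2 was detected in at most 2.08%, the share of DN3b γδ-. It was lowest, at 0.0575%, in DN4 γδ+, where Ly6c1 was higher than in DN3b γδ-. The 7 myeloid markers, of which 5 to 7 had any UMI, summed to 148 to 191 CPM in the Lat-KO libraries and 99.9 to 151 CPM in the WT libraries, with Cst3 on top in each, and the part of myeloid RNA in the level of Ly6c1 was not tested. Barcodes with at least 2 UMIs of defining genes of other cell types, or with over 1% haemoglobin UMIs, were also counted. They were 6.63% of Lat-KO γδ-, 4.13% of Lat-KO γδint and 0.0689% to 2.24% of the WT libraries. Lyz2 alone gave 98.3% of the UMIs of these defining genes in Lat-KO γδ- and 92.4% in Lat-KO γδint. Leaving these barcodes out was among the 13 alternatives under which the log2 ratio of Ly6c1 between Lat-KO γδ- and DN3a stayed between 1.99 and 2.19.

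The 2 near-copies thus had different patterns, and the 250 bases before their start sites are shown for that reason. They are from RefSeq, build GRCm38.p6, minus strand, at chr15:75048838-75049087 for Ly6c1 and chr15:75111972-75112221 for Ly6c2, outside any annotated exon, with matches to the motifs searched in capitals.
Ly6c1: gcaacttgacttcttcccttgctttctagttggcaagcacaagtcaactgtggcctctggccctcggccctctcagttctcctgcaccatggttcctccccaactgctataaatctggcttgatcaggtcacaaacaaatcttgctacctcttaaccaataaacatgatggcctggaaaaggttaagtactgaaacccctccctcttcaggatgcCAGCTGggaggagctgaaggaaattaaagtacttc
Ly6c2: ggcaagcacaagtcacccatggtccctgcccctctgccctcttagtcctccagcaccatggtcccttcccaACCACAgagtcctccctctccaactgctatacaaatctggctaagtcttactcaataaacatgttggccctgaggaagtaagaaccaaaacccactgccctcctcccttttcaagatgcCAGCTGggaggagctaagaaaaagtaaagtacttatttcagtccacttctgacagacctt
The 2 stretches aligned with 168 identical positions in 229 columns (73.4%). The motifs searched, on both strands, were CAGCTG (an E-box), TGTGGT (read by RUNX factors), GAAA, any 2 bases and GAAA (an interferon-response element) and TTCNNNGAA (a STAT site), which occur in 13.0%, 14.0%, 2.98% and 7.02% of 32851 promoters of the same length. CAGCTG was found in both genes, at -35 to -30 from the start in Ly6c1 and at -60 to -55 in Ly6c2. The RUNX letters were found in Ly6c2 alone, at -179 to -174 and on the opposite strand. Neither gene held the other 2 motifs, and the promoters of Cd27 and Cd44 held none of the 4.

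**Figure D1:**
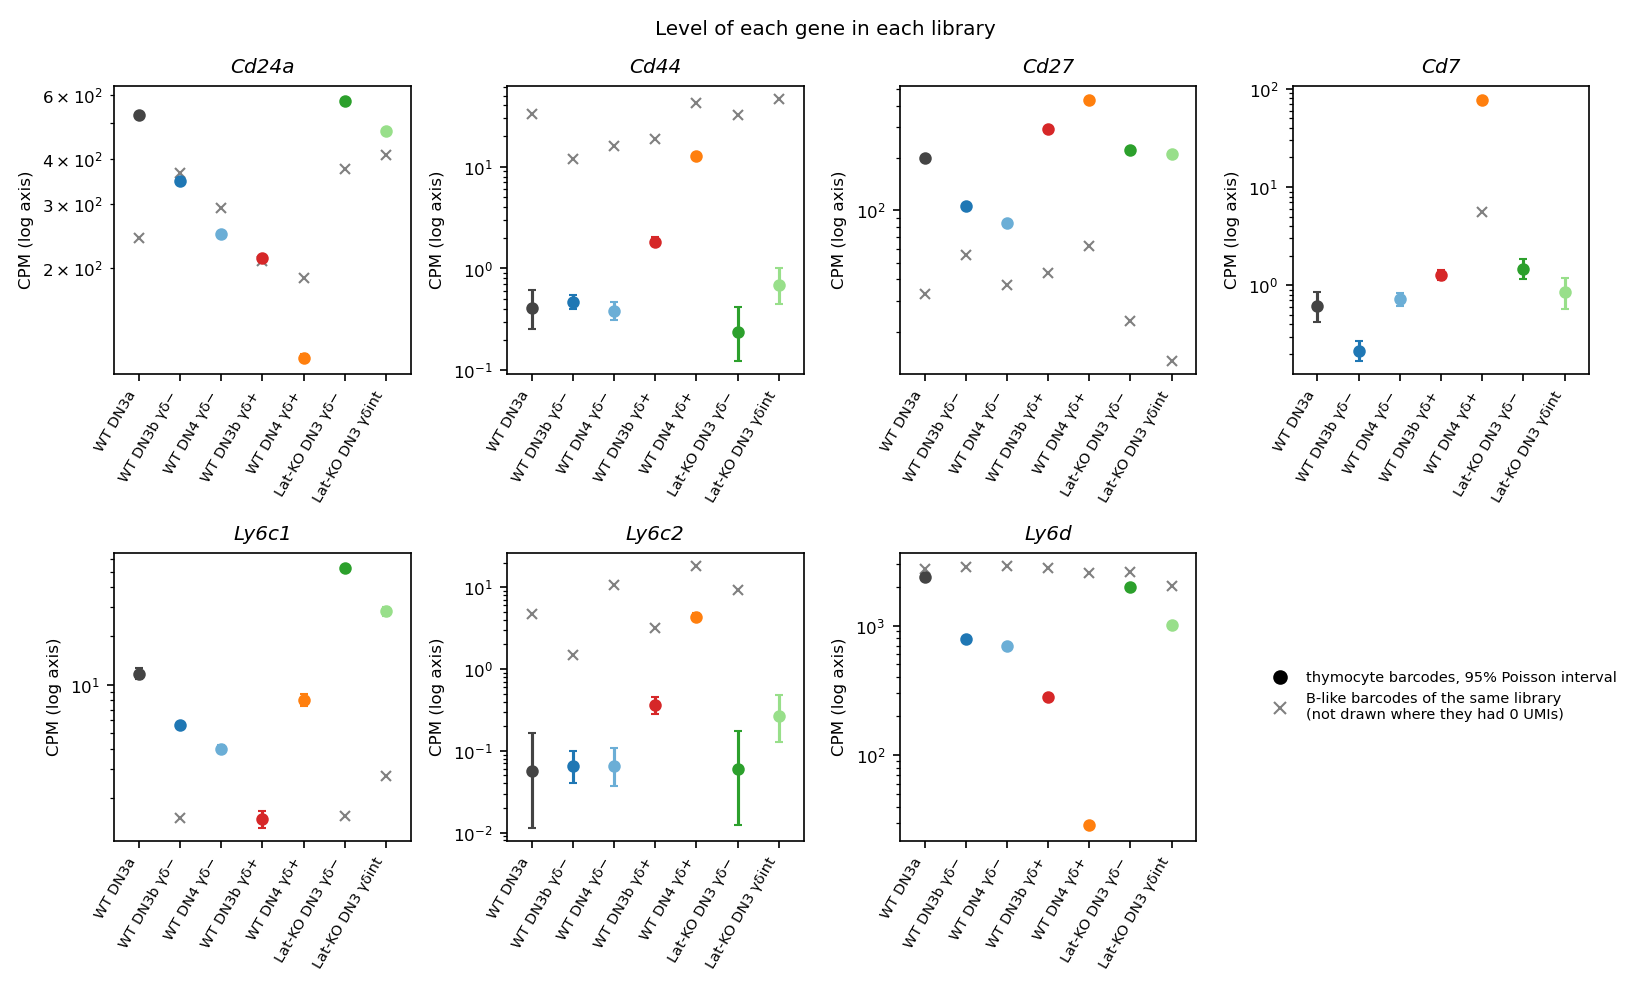
Level of each of the 7 genes (CPM, log axis) in the thymocyte barcodes of the 7 libraries with 95% Poisson intervals, and in the spiked B cells (crosses). Cd7, Cd44, Ly6c2 and Cd27 are highest in DN4 γδ+, where Cd24a and Ly6d are lowest, and Ly6c1 is highest in the Lat-KO libraries.

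Shares of barcodes with a UMI were compared after thinning each barcode to 4000 UMIs, which left out 343 to 1769 shallower barcodes per library. Cd24a was detected in 83.3% of DN3a, 73.8% of DN3b γδ-, 62.2% of DN4 γδ-, 52.3% of DN3b γδ+, 29.1% of DN4 γδ+ (28.0% to 30.2%), 84.9% of Lat-KO γδ- and 80.5% of Lat-KO γδint barcodes. Ly6d was detected in 97.3%, 86.1%, 80.0%, 41.4%, 4.10%, 93.3% and 85.4% in the same order. Both shares followed the order of the levels, except that for Ly6d DN3b γδ- stood above Lat-KO γδint. Cd27 was detected in 54.1%, 34.8%, 28.7%, 67.2%, 80.4%, 58.3% and 57.1%, so that most DN4 γδ+ barcodes carried Cd27 and under 30% carried Cd24a. In B cells, which had medians of 2416 to 3747 UMIs against 5737.5 to 18506 in thymocytes, Cd27 was detected in 2.17% to 21.6% of the 19 to 51 barcodes that reached 4000 UMIs.

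Cd7 was detected in 16.5% of DN4 γδ+ barcodes (15.7% to 17.4%) and in 0.0736% to 0.620% elsewhere. In the B cells of DN4 γδ+ its share was 3.92% (2 of 51, 0.478% to 13.5%), and in those of the other libraries it was 0, with upper bounds of 7.71% to 17.6%. Ly6c1 was detected in 18.0% of Lat-KO γδ-, 10.4% of Lat-KO γδint, 4.38% of DN3a and 0.691% to 3.04% of the other libraries, and in at most 2.17% of B cells. Cd44 reached 4.72% in DN4 γδ+ and 0.0653% to 0.783% elsewhere. Ly6c2 reached 1.04% in DN4 γδ+ and at most 0.129% elsewhere, which was below the 7.84% (4 of 51) of the DN4 γδ+ B cells, so this share alone does not show expression. Without thinning the share of Cd24a ranged from 40.8% in DN4 γδ+ to 96.3% in DN3b γδ-, that of Cd27 from 68.9% in DN4 γδ- to 90.7% in DN3b γδ+, and that of Ly6d from 7.39% in DN4 γδ+ to 97.7% in DN3a. It was 21.5% for Cd7 and 7.87% for Cd44 in DN4 γδ+ and 27.4% for Ly6c1 in Lat-KO γδ-. The order thus differed without thinning for Cd27, for which DN3b γδ+, with a median of 15392 UMIs, passed DN4 γδ+, with 6418. For Cd24a, DN3b γδ- was highest without thinning and below DN3a and both Lat-KO libraries with it. Ly6c1 was detected in 8.97% of DN3b γδ- and 7.71% of DN3a without thinning, against 2.47% and 4.38% with it. Ly6d was detected in 95.9% of DN3b γδ- and 95.2% of Lat-KO γδ- without thinning, against 86.1% and 93.3% with it. Among the low shares of Cd7 and Ly6c2 the order differed as well.

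**Figure D2:**
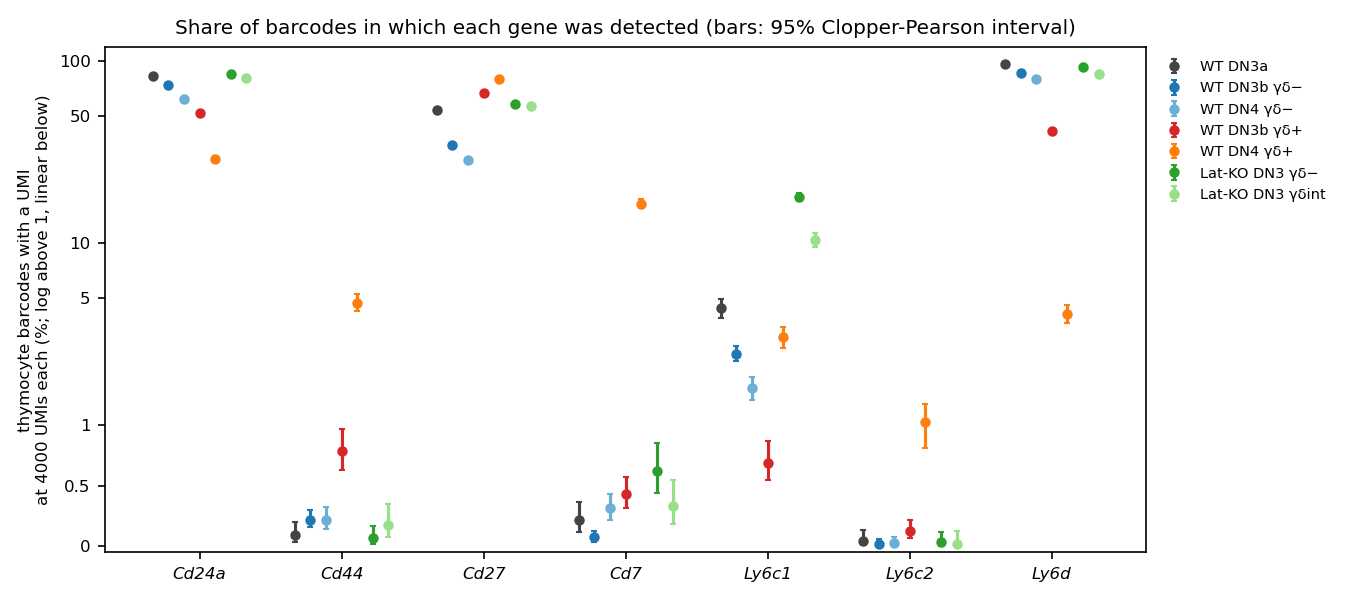
Share of thymocyte barcodes with at least 1 UMI of each gene (%), after thinning to 4000 UMIs, in the 7 libraries, with exact 95% intervals. DN4 γδ+ combines the lowest Cd24a and Ly6d shares, 29.1% and 4.10%, with the highest Cd27 and Cd7 shares, 80.4% and 16.5%.

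The study compares the sorted stages with each other, and 8 pairs of libraries were set side by side. A gene was counted when it reached 20 CPM in either library, and called when the ratio exceeded 2-fold. The share of all counted genes past the same fold is given as background. In DN3b γδ- over DN3a, the step of β selection, Ly6d was the member past 2-fold of 3 counted, at -1.60 on the log2 scale (-1.61 to -1.59), when 14.6% of all genes were called lower and 11.4% higher. Cd27 lay just inside the limit at -0.93, and passed it with totals that left out mitochondrial and ribosomal-protein genes (-1.01) and with the level of the B cells subtracted (-1.74). Cd24a was at -0.60. In non-cycling cells Cd27 was at -0.46 and Cd24a at -0.23. In DN4 γδ- over DN3b γδ-, none of 3 members was called, when 0.524% of all genes were called higher and 0.66% lower, and Cd24a (-0.49), Cd27 (-0.32) and Ly6d (-0.18) were all lower.

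In DN3b γδ+ over DN3a, the step of γδ selection, Cd24a (-1.31) and Ly6d (-3.09) of 3 counted members were called lower, with a background of 13.4% lower and 11.5% higher. Cd27 was higher by 0.55. The call of Cd24a was lost with TMM scaling, at -0.98, and in non-cycling cells, at -0.41. In non-cycling cells Ly6d was at -1.89. Between the 2 selected DN3b libraries, γδ+ over γδ-, Cd27 was called higher at 1.48 (1.46 to 1.49) and Ly6d lower at -1.49, when 5.13% of all genes were called higher and 1.79% lower. Cd24a was at -0.71. These libraries hold similar shares of cycling cells, but Ly6d was at -0.86 in non-cycling cells and so lost its call.

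In DN4 γδ+ over DN3b γδ+, the step of γδ maturation, Cd7 was called higher at 5.91 (5.73 to 6.10), the highest ratio of all 5827 genes counted, and Ly6d lower at -3.28 (-3.34 to -3.21), when 10.5% of all genes were called higher and 7.33% lower. Cd27 was at 0.56 and Cd24a at -0.91. Cd24a passed 2-fold with TMM scaling (-1.21) and in non-cycling cells (-1.89), where Ly6d was at -5.66. Below the level limit, Cd44 was higher by 2.78, Ly6c1 by 2.46 and Ly6c2 by 3.59 in DN4 γδ+.

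In Lat-KO γδ- over DN3a, Ly6c1 was called higher at 2.17 (2.04 to 2.29) and no other of 4 counted members passed 2-fold, with a background of 2.28% higher and 0.557% lower. Cd24a was at 0.13 and Cd27 at 0.14, and both turned negative with TMM scaling (-0.04 and -0.03). Ly6d was at -0.26. In Lat-KO γδint over Lat-KO γδ-, no member of 4 was called, with a background of 4.64% higher and 3.95% lower, but Ly6d (-0.97) and Ly6c1 (-0.89) lay just inside the limit and passed it with TMM scaling (-1.21 and -1.14). Ly6d was also lower between the B cells of these libraries, at -0.35 (-0.48 to -0.23). In Lat-KO γδint over DN3b γδ+, Ly6c1 (4.27), Ly6d (1.86) and Cd24a (1.17) were called higher and Cd27 was at -0.48, when 24.8% of all genes were called higher and 7.41% lower. The median of all genes was 0.51 there, and with TMM scaling the values became 3.53 for Ly6c1, 1.12 for Ly6d, 0.42 for Cd24a and -1.23 for Cd27. In non-cycling cells Cd24a (0.31) and Ly6d (0.82) were below 2-fold. In the spiked B cells of the same libraries Cd24a was also higher, at 0.97 (0.54 to 1.40). There Ly6d was lower at -0.48, and Cd27 was at -1.69 from 5 and 14 UMIs. The part of such library-wide shifts in the thymocyte values was not tested.

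Another scaling moved all genes together. TMM scaling shifted every log2 ratio by 0.36 in DN3b γδ- over DN3a, 0.32 in DN3b γδ+ over DN3a, -0.04 between the DN3b libraries, 0.00 in DN4 γδ- over DN3b γδ-, -0.30 in DN4 γδ+ over DN3b γδ+, -0.17 in Lat-KO γδ- over DN3a, -0.25 between the Lat-KO libraries and -0.74 in Lat-KO γδint over DN3b γδ+. The share of called genes that were higher went with it from 43.8% to 74.1%, 46.3% to 71.5%, 74.1% to 69.3%, 44.3% to 43.5%, 58.8% to 26.1%, 80.3% to 56.5%, 54.0% to 26.6% and 77.01% to 24.9%, respectively. With DESeq2 size factors the share in DN4 γδ- over DN3b γδ- was 59.4%.

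**Figure D3:**
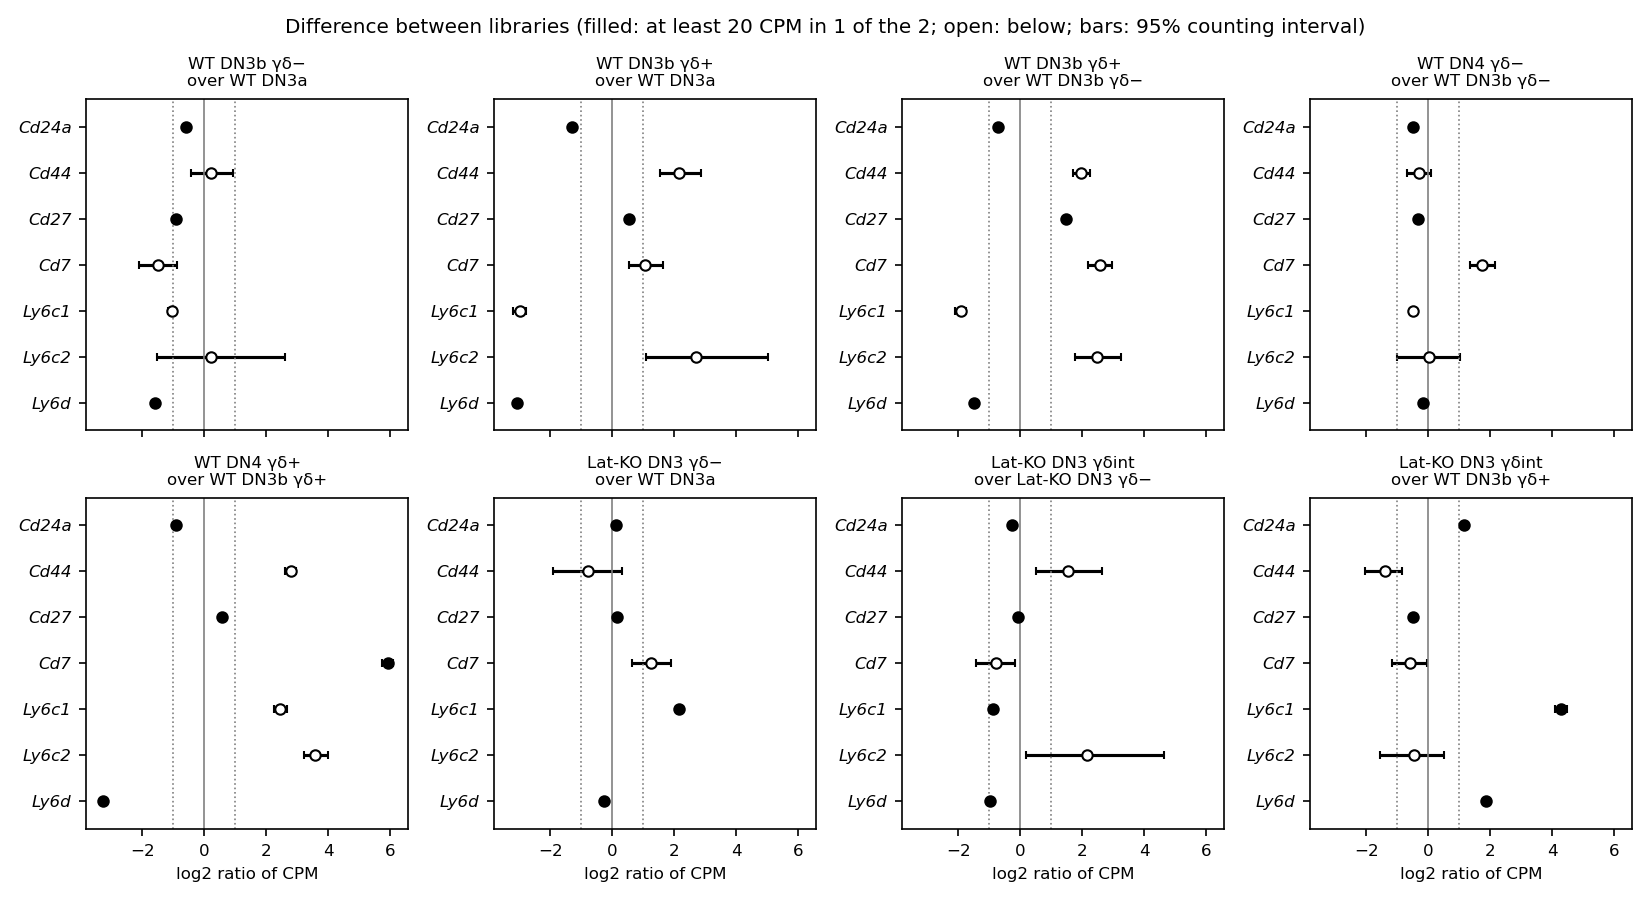
Log2 ratio of CPM of each gene in the 8 comparisons, with 95% counting intervals, where filled points are genes of at least 20 CPM in either library and the lines mark 2-fold. Cd7 and Ly6d in DN4 γδ+ over DN3b γδ+ lie at 5.91 and -3.28, and Ly6c1 exceeds 2-fold in Lat-KO γδ- over DN3a at 2.17.

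Among 12 genes for partners of these proteins, 6 reached 20 CPM in each comparison. Cd70, the ligand of CD27, was at 0 to 0.0286 CPM, and Sectm1a and Sectm1b, ligands of CD7, were at most at 0.0398 CPM in any library, so these ligands were at or near 0 among the thymocytes. Siva1, whose product binds the tail of CD27, was the 1 partner called in DN3b γδ- over DN3a, higher at 1.38 (11.4% of all genes were), and in DN4 γδ+ over DN3b γδ+, lower at -1.503 (7.33%). Msn, which codes for moesin, a linker of CD44 to actin, was called higher in DN3b γδ+ over both DN3a (1.70) and DN3b γδ- (1.04), where 11.5% and 5.13% of all genes were. Lgals1, for galectin-1, a ligand of CD7, was called lower in Lat-KO γδint over Lat-KO γδ- at -1.69 and over DN3b γδ+ at -2.52, where 3.95% and 7.41% were. With TMM scaling more partners were called, 4 of 6 higher in DN3b γδ- over DN3a (beside 22.0% of all genes), 2 of 6 higher in DN3b γδ+ over DN3a (beside 20.5%) and 3 of 6 lower in Lat-KO γδint over DN3b γδ+ (beside 18.4%). The median log2 ratio of the 6 was -0.26 in DN4 γδ+ over DN3b γδ+, beside 0.01 for all genes, and 0.29 in Lat-KO γδ- over DN3a, beside 0.22.

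Of 17 further genes of the Ly6 family, 2 to 4 were counted in a comparison. Ly6a, which codes for the stem cell antigen Sca-1, was at 18.5 CPM for DN3a, 18.4 for DN3b γδ-, 12.4 for DN4 γδ-, 8.35 for DN3b γδ+, 17.5 for DN4 γδ+, 114 for Lat-KO γδ- and 71.5 for Lat-KO γδint. It was thus highest in the same 2 libraries as Ly6c1, with a log2 ratio of 2.63 in Lat-KO γδ- over DN3a, where it was the 1 gene called of 4 counted and the median of the 4 was 0.20, beside 2.28% of all genes called higher, 0.557% called lower and a median of 0.22. Ly6e was at 628 to 1405 CPM and lowest in DN3b γδ+. Ly6k was at 11.6 CPM in DN4 γδ+ and 27.9 to 65.9 CPM elsewhere. Cd59a and Cd59b, for inhibitors of the complement attack complex, were at 3.20 to 21.4 CPM in DN3a and the Lat-KO libraries and at most at 1.53 CPM in the other 4.

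Genes of the branches of γδ T cells were already higher in DN3b γδ+. Over DN3b γδ-, 2 of 2 counted genes of the interleukin-17-producing (γδ17) branch, 2 of 2 of the interferon-γ-producing (γδ1) branch and 4 of 4 of exit from the thymus were called higher, beside 5.13% of all genes, and over DN3a 2 of 2, 1 of 2 and 2 of 4, beside 11.5%. In DN4 γδ+ over DN3b γδ+, 6 of 6 counted γδ17 genes were called higher (median 2.86), with 4 of 5 γδ1 genes (median 1.70) and 4 of 6 exit genes (median 2.47), beside 10.5% of all genes called higher and a median of 0.01. Of the 10 cell cycle genes 5 were called lower (median -0.98), beside 7.33% of all genes. With TMM scaling, 5 of the 6 γδ17 genes, 3 of the 5 γδ1 genes and 4 of the 6 exit genes were called higher, beside 5.90% of all genes, and all 10 cell cycle genes were called lower, beside 15.6%. Over DN3a, all 10 cell cycle genes were called higher in DN3b γδ- (median 5.04, beside 11.4% of all genes) and in DN3b γδ+ (median 4.90, beside 11.5%). In Lat-KO γδ- over DN3a 8 of 8 counted were called higher (median 1.55, beside 2.28%), and 6 of them with TMM scaling. In Lat-KO γδint over Lat-KO γδ- all 10 were called higher (median 2.16, beside 4.64%).

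Among the sort markers, Il2ra, which codes for CD25, was at 620.0 CPM in DN3a and 629 to 862 CPM in both Lat-KO libraries, and at 4.25 CPM in DN4 γδ+ against 30.5 CPM in DN3b γδ+. Trdc, which codes for the constant part of TCRδ, was at 1016 CPM in DN3b γδ+ and 1844 CPM in DN4 γδ+, against 201 to 311 CPM in the other WT libraries. In the Lat-KO libraries it was lower than in DN3a, at 24.0 CPM in Lat-KO γδ- and 36.3 CPM in Lat-KO γδint. The Trdc allele with the reporter has a row of its own, at 30.5 CPM and 44.2 CPM in those libraries and at 3 UMIs or fewer in each WT library. The study summed both rows into a single Trdc feature before its expression analysis, which was not done here. On its own, neither row marks the Lat-KO γδint library as Trdc marks the WT γδ+ libraries. How reads were shared between these rows was not tested.

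Pairs of members were then compared within libraries, as the number of barcodes with both genes over the number that the 2 single shares would give if they were unrelated. Barcodes of 1 library are not replicates, so these are descriptions. Cd24a and Cd27, although their levels differed in opposite directions along the γδ path, were met together as often as their shares gave, with ratios of 1.01 in DN4 γδ+ (0.96 to 1.06) and 1.02 in DN3b γδ+ (0.98 to 1.05). Cd24a and Cd7 were met together less often. In DN4 γδ+ their ratio was 0.70 (0.61 to 0.79), as 11.5% of the barcodes with Cd24a and 18.6% of those without it had Cd7. It was 0.41 in DN3b γδ+ (0.19 to 0.75, 10 barcodes) and 0.52 in DN4 γδ- (0.27 to 0.91, 12 barcodes), and 0.99 to 1.20 in the other 4 libraries, each with 10 to 34 barcodes. In DN4 γδ+ it was 0.73 among non-cycling and 0.57 among the other barcodes.

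Cd24a and Ly6d were met together more often in DN3b γδ+, where 49.3% of the barcodes with Cd24a and 32.7% of those without it had Ly6d, a ratio of 1.19 (1.15 to 1.24). It was 1.12 among the non-cycling (1.02 to 1.23) and 1.19 among the other barcodes of that library, and 0.9998 to 1.008 in DN3a, DN3b γδ-, DN4 γδ- and the Lat-KO libraries, where most barcodes had Ly6d. In DN4 γδ+ it was 1.14 (0.92 to 1.39). Cd7 and Ly6d had ratios of 0.57 in DN4 γδ+ (0.38 to 0.84) and 0.51 in DN4 γδ- (0.28 to 0.84). Cd7 and Ly6c2 had a ratio of 3.02 in DN4 γδ+ (2.12 to 4.18, 36 barcodes), while Cd7 and Ly6c1 had 1.23 (0.89 to 1.66). Ly6c1 and Ly6c2 shared 1 barcode in DN4 γδ+ and none in the other libraries.

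Within DN4 γδ+, barcodes were grouped by their Cd24a UMIs after thinning: 4918 had 0, 1341 had 1, 614 had 2 or 3, and 59 had 4 to 7. Those with 8 or more were under 20 and were left out. The share with Cd7 was 18.6%, 11.9%, 11.6% and 1.69% in these groups, the last from 1 barcode (0.0429% to 9.09%). Several genes of exit from the thymus were less frequent in every group with Cd24a. S1pr1, the receptor that guides egress, was detected in 23.9%, 12.8%, 7.65% and 11.9%, and Klf2, a factor that turns it on, in 59.3%, 49.1%, 45.3% and 42.4%. Itgb7, a gut-homing integrin chain, was detected in 29.3%, 19.4%, 16.8% and 8.47%. Ccr7 was at 15.9% without Cd24a and at 11.4% to 13.6% with it. Ccr9, a chemokine receptor gene of the same list, was not less frequent, at 78.3% without Cd24a and 81.4% to 83.4% with it.

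Sox13, Maf and Blk of the γδ17 list were more frequent with Cd24a. Sox13 was detected in 42.1%, 52.2%, 58.0% and 61.0%, and Maf in 41.9%, 51.9%, 54.6% and 72.9%. Blk was at 26.8%, 36.8%, 40.6% and 35.6%. Cd163l1 of that list did not follow this order, at 16.4%, 20.2%, 16.0% and 11.9%, nor did Il1r1, at 2.64%, 3.88%, 2.28% and 0%, and Il17a, Ccr6 and Il23r were met in at most 5 barcodes of any group. The last group rests on 59 barcodes and its intervals are wide, from 59.7% to 83.6% for Maf. Of the cell cycle genes, Top2a was at 24.0%, 24.7%, 23.5% and 23.7%, while Ccna2 was at 8.30%, 6.79%, 5.37% and 8.47%, lower in the group with 2 or 3 Cd24a UMIs (3.73% to 7.47%) than in that with 0 (7.54% to 9.10%). Cd27 was at 80.1%, 82.1%, 79.3% and 78.0%.

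**Figure D4:**
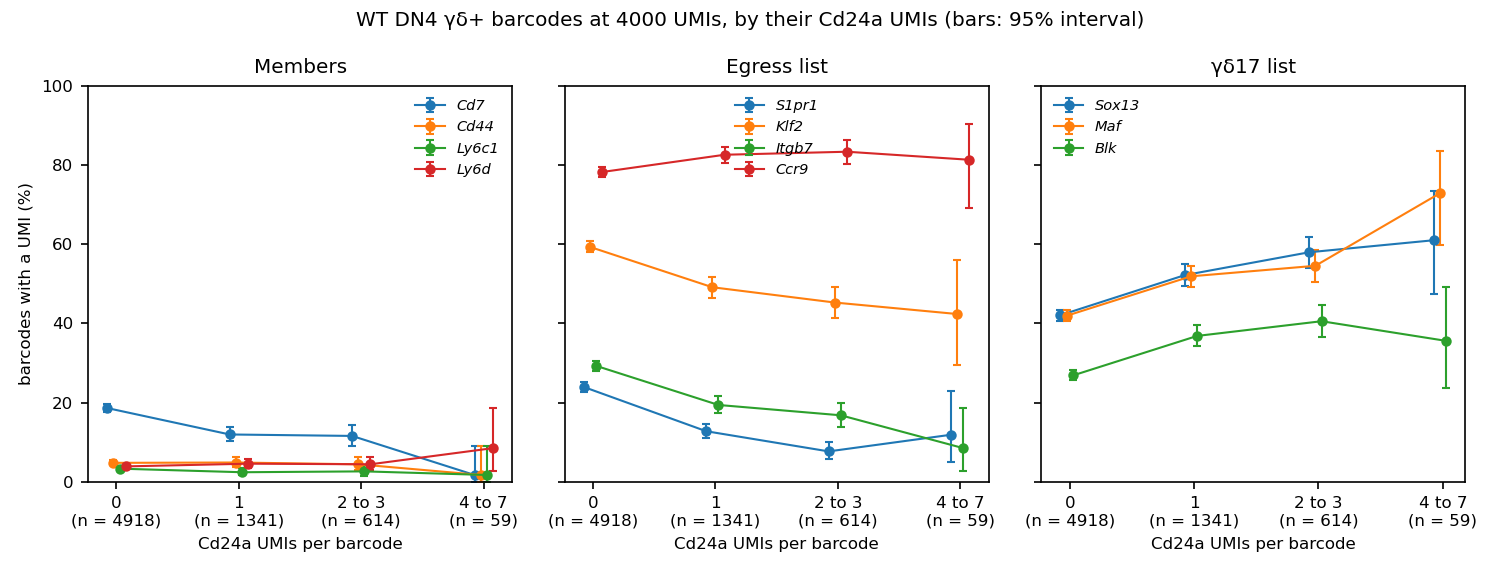
Share of WT DN4 γδ+ barcodes with a UMI of other genes (%), by the number of Cd24a UMIs at 4000 UMIs per barcode, with exact 95% intervals. Drawn are the members Cd7, Cd44, Ly6c1 and Ly6d, the egress genes S1pr1, Klf2, Itgb7 and Ccr9, and Sox13, Maf and Blk of the γδ17 list. The rest of the γδ17 list, of which Cd163l1 and Il1r1 did not follow this order, is not drawn. From 0 to 2 or 3 Cd24a UMIs the share with Cd7 goes from 18.6% to 11.6% and that with Maf from 41.9% to 54.6%. The group with 4 to 7 holds 59 barcodes, of which 1.69% (1 barcode) had Cd7 and 72.9% had Maf.

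For the 3 members detected in 5% to 95% of DN4 γδ+ barcodes, the genes that differed most between barcodes with and without the member were listed. The mean UMIs per barcode at 4000 UMIs were 0.436 for Cd24a, 0.377 for Cd7 and 1.84 for Cd27. A barcode without a UMI need not lack the transcript. With Cd24a, Sox13 (54.2% against 42.1%), Endou, Etv5, Maf and Dntt were more frequent by 11.3 to 12.1 percentage points. Etv5 is a factor of TCR-signalled γδ cells and Dntt codes for the polymerase that adds bases at V(D)J joints. Cd2 (26.4% against 41.8%), Vim, Ms4a4b, Shisa5 and Gimap4 were less frequent, with differences of -15.4 to -13.4 points. Of 6775 genes detected in enough barcodes, 0.339%, Cd24a itself among them, differed by over 10 points.

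With Cd7 the differences were larger, and 1.92% of 6885 genes, Cd7 itself among them, differed by over 10 points. Il2rb, a chain of the interleukin-2 and -15 receptors, was detected in 43.4% of barcodes with Cd7 and 14.1% without, followed by Ms4a4b (74.6% against 48.9%), Klf2, Cd160 and Shisa5. The median difference of all these genes was -0.000964 points, with 5% of them below -4.29 and 5% above 4.93 points. All 9 genes of the γδ1 list were more frequent with Cd7, by 1.17 to 29.3 points, and 7 of them by more than 4.93 points, among them Nkg7 (77.4% against 59.4%), Ccl5 (21.0% against 3.56%), Klrd1 (11.1% against 0.9504%) and Eomes (10.0% against 1.503%), where Tbx21 (1.31% against 0.138%) was rare. Sox13 (27.9% against 49.1%), Ccr9, Etv5, Gzma and Dntt had the largest differences the other way, of -21.2 to -18.8 points, and Maf (32.4% against 47.8%) and Blk (17.6% against 32.5%) were also less frequent. All 10 cell cycle genes were less frequent with Cd7 too, with differences from -8.61 points for Pclaf to -2.28 points for Ccnb1. Cd7 was detected in 18.0% of the non-cycling and 12.6% of the other DN4 γδ+ barcodes.

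Barcodes with and without Cd27 differed little, and 0.0588% of 6805 genes, Cd27 itself among them, differed by over 10 points. The part of missed Cd27 transcripts in this split was not tested. Lztfl1, B630019A10Rik, Npc2, Mndal and Slc9a9 were more frequent with Cd27 by 8.14 to 8.88 points. Pclaf (20.2% against 32.3%), Tuba1b, Top2a, Slbp and Pcna, which serve DNA replication and division, were less frequent, with differences of -12.1 to -9.84 points, and all 10 cell cycle genes were less frequent with Cd27, beside a median of 0.10 points for all genes and 5% of them below -3.33 points. The γδ1 genes were split, with Nkg7 and Ikzf2 more frequent by 3.59 and 3.05 points and the other 7 less frequent, with differences of -3.504 to -0.209 points. Of the γδ17 list, Maf (7.82 points), 5830411N06Rik (5.60) and Sox13 (5.24) were more frequent with Cd27, where 5% of all genes were above 3.09 points. The rest of that list differed by -0.0557 to 2.504 points. Cd44, Ly6c1, Ly6c2 and Ly6d were detected in under 5% of these barcodes and were not split in this way.

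**Figure D5:**
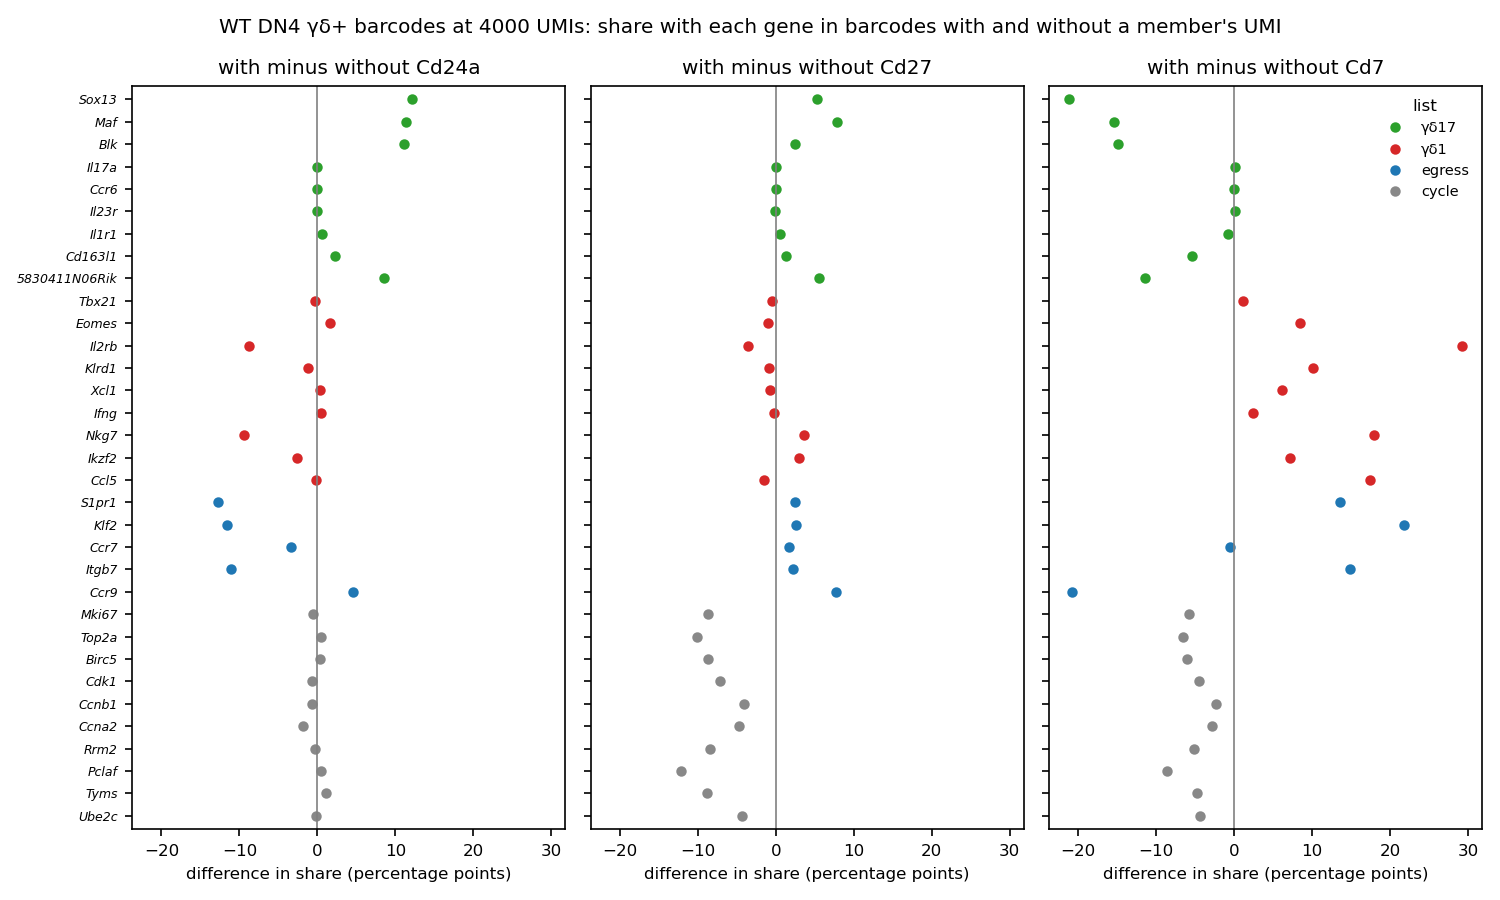
Difference in detection (percentage points) of genes of the γδ17, γδ1, egress and cell cycle lists between WT DN4 γδ+ barcodes with and without a UMI of Cd24a, Cd27 or Cd7. Il2rb stands at 29.3 points and Sox13 at -21.2 points for Cd7. The cell cycle genes lie between -12.1 and -4.05 points for Cd27 and between -8.61 and -2.28 points for Cd7.

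For each member, the 3 genes whose log2(CPM + 1) profile over the 7 libraries, centred on its mean, lay closest were found among genes of at least 20 CPM in 1 library. Closeness is the root mean square (RMS) difference, and with 1 library per point it is a description over 7 points. Cd27 lay closest to Atp1b1 (0.11), Pde7a (0.14) and Tespa1 (0.15), which code for a sodium pump subunit, a phosphodiesterase and a TCR signalling protein. Cd24a lay closest to Chdh (0.18), D5Ertd605e (0.18) and Mfsd13a (0.20). Cd7 lay closest to Samhd1 (0.27), Myo6 (0.30) and S1pr1 (0.30), each at 59.6 to 99.2 CPM in DN4 γδ+ and at most 4.03 CPM elsewhere. Cd44 lay closest to Mllt6 (0.17), Rasa3 (0.20) and Cd163l1 (0.21), and Ly6c2 to Ppm1l (0.17), Gimap7 (0.17) and Ankrd44 (0.19). For Cd44, Ly6c2 and Cd7, which were near or below 1 CPM in most libraries, the added 1 flattens the profile, so that a small distance is no sign of a like fold. Ly6c2 was at 0.0558 CPM in DN3a and 4.35 CPM in DN4 γδ+, and Ppm1l at 5.51 and 32.3 CPM.

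Ly6c1 lay nearest to Oasl2 (0.32), Ly6a (0.38) and Gm12216 (0.41). These distances are not scaled to how much a member varied. The RMS of a member about its own mean was 1.40 for Ly6c1, 0.78 for Cd24a and 1.99 for Ly6d. Oasl2 is an interferon-induced gene and was at 41.3 CPM in Lat-KO γδ-, 21.2 in Lat-KO γδint, 11.1 in DN3a and 1.64 to 5.46 CPM elsewhere. Ly6d lay nearest to Prss57 (0.62), Dgkeos (0.71) and Smim5 (0.73). Likeness over libraries did not always extend to single barcodes. In DN4 γδ+, Cd7 was met together with Samhd1 (1.86, 1.68 to 2.05) and S1pr1 (1.56, 1.40 to 1.73) more often than the single shares gave, but with Myo6 less often (0.68, 0.57 to 0.82). In Lat-KO γδ-, Ly6c1 was met more often with Oasl2 (1.49, 1.27 to 1.72) and with Ly6a (1.31, 1.19 to 1.44), but at 1.05 with Gm12216 (0.91 to 1.21). Ly6c1 and Ly6a share read-length stretches, and the part of this in their joint detection was not tested. In DN3b γδ+, Ly6d was met more often with Prss57 (1.65) and Dgkeos (1.72).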

How the data were processed

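Thymocytes of 7 sorted subsets, 1 library each, were profiled with 10x 3′ v3 chemistry. The files the authors deposited hold UMI counts for every gene in every barcode, made with Cell Ranger on an mm10 genome carrying the edited Trdc reporter. The file headers give version 4.0.0 and the submitters' processing notes version 5.0.1, along with R 3.6.3 and Seurat 3.1.5. The counts were neither scaled nor corrected, and the barcodes are those Cell Ranger called cells. Doublets had been excluded by scatter at the sort, and no doublet caller was run.

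The study's limits on barcodes were applied (200 genes or more, mitochondrial UMIs up to 15%), and those with over 1 UMI of Cd79a, Cd79b and Ms4a1 were left out. UMIs were summed per library and divided by the total over the barcodes kept (37820685 to 338698944 UMIs per library, of 49407750 to 375688164 as deposited). With 1 library per group no test was run. CPM carry exact Poisson, shares exact Clopper-Pearson and log2 ratios exact conditional binomial 95% intervals. The intervals cover counting error only. A count of 0 entered a ratio as 3 UMIs, and a gene at or under 3 UMIs in both libraries had no ratio. Genes of at least 20 CPM in either library were counted, and those past 2-fold were called. Shares were taken at 4000 UMIs per barcode.

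The members and gene lists were chosen with earlier results of these data known. The genes named besides the 7 members were the 3 nearest profiles, the 5 largest and 5 smallest differences with each member in DN4 γδ+, and the members of the lists. The 12 partner genes, 17 Ly6 family genes, and the γδ17, γδ1, egress and cell cycle lists were used. Of the 10 sort markers, Il2ra and Trdc are given. Some genes of the lists are counted with their list and not reported singly here. Tables were handled with pandas 2.3.3 and numpy 2.4.6, intervals came from scipy 1.17.1 and figures from matplotlib 3.10.9, under Python 3.11.15. The 13 alternatives to the main processing included TMM scaling (edgeR 4.0.16) and DESeq2 1.42.0 size factors in R 4.3.3. A B cell rule without Cd79b was chosen after seeing the data. The interval and ratio code was tested on simulated data. Positions and transcripts came from GENCODE vM21, in which all 7 identifiers matched, and promoters from RefSeq (GRCm38.p6), in which 4 of the 7 members matched.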

Additional observations from a re-analysis of the deposited data

Results flagged for a closer look

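In 4 cases the ratio of a member had the opposite sign on the γδ+ and the γδ- path and both counting intervals left out 0. With 1 library per group the difference between the paths was not tested. Cd27 was higher in DN4 than in DN3b cells on the γδ+ path (0.56 on the log2 scale) and lower on the γδ- path (-0.32), a difference of 0.88. Ly6c1 went the same way at that step, with 2.46 and -0.49 and a difference of 2.95, at levels between 1.47 and 8.08 CPM. From DN3a to DN3b, Cd27 was at 0.55 on the γδ+ path and -0.93 on the γδ- path, a difference of 1.48. Cd7 was at 1.05 and -1.51 for the same step, a difference of 2.56, but rests on 33 to 249 UMIs and at most 1.27 CPM in these 3 libraries. In non-cycling barcodes the γδ- values were closer to 0 in all 4 cases, at -0.19 for Cd7, at -0.46 for Cd27 from DN3a to DN3b (205 and 149 CPM), at -0.03 for Cd27 from DN3b to DN4 (149 and 146 CPM, with intervals that met), and for Ly6c1 with 12.6 CPM (10.4 to 15.1) in DN3b γδ- and 10.9 CPM (8.35 to 14.0) in DN4 γδ-. The γδ- value of Ly6c1 was -0.04 with the level of the B cells subtracted. Cd44 also had opposite signs from DN3b to DN4 (2.78 and -0.31), but its interval on the γδ- path runs from -0.69 to 0.071. The signs of the 4 cases were the same with TMM scaling, under which Cd27 was at 0.25 and -0.32 from DN3b to DN4 and at 0.87 and -0.57 from DN3a to DN3b.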

How the results depend on the processing

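No ratio of a called member changed sign under any of the 13 alternatives. Without the limit of 20 CPM the members past 2-fold numbered 3 in DN3b γδ- over DN3a (main 1), 6 in DN3b γδ+ over DN3a (2), 6 in DN3b γδ+ over DN3b γδ- (2), 1 in DN4 γδ- over DN3b γδ- (0), 5 in DN4 γδ+ over DN3b γδ+ (2), 2 in Lat-KO γδ- over DN3a (1) and 2 in Lat-KO γδint over Lat-KO γδ- (0). TMM scaling gave 1 in DN3b γδ+ over DN3a, as Cd24a was lost, and 2 in Lat-KO γδint over Lat-KO γδ-, as did DESeq2 size factors and totals without mitochondrial and ribosomal-protein genes. Those totals gave 2 in DN3b γδ- over DN3a, where subtracting the level in B cells also gave 2. Non-cycling cells gave 1 in DN3b γδ+ over DN3a, 1 in DN3b γδ+ over DN3b γδ-, and 1 in Lat-KO γδint over DN3b γδ+ (3). The cause of these moves was not tested beyond what each alternative changes. The other 6 alternatives on filters and barcodes, with the B cell rule without Cd79b, moved no count by over 1.5 times.

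No paired analysis was possible because each group has 1 library and the labels give no replicate numbers, and for the same reason no replicate could be left out. Thinned to 2000 UMIs, 57 of 63 co-detection ratios moved by less than their interval. Depth limits Cd44, Cd7 outside DN4 γδ+ and Ly6c2, which were under 20 CPM.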

Other observations

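CD27 and CD44 together are used to divide mature γδ T cells. Detection at 4000 UMIs divided the DN4 γδ+ barcodes into 5320 with Cd27 only, 256 with both, 71 with Cd44 only and 1287 with neither. The means there were 1.84 UMIs of Cd27 and 0.0539 UMIs of Cd44 per barcode, so a barcode without a UMI need not lack the transcript. These are classes of detection, and the part of missed transcripts in them was not tested. The share with Sox13 was 46.1% with Cd27 only (44.8% to 47.5%), 56.6% with both (50.3% to 62.8%), 52.1% with Cd44 only (39.9% to 64.1%) and 40.8% with neither (38.1% to 43.5%). Il1r1, a receptor gene of interleukin-17 producers, was detected in 2.78%, 5.86%, 5.63% and 2.25%, respectively. Il17a was detected in 3, 1, 0 and 1 barcodes. S1pr1 was detected in 20.9%, 17.6%, 12.7% and 18.5%. With 71 barcodes the class with Cd44 only had intervals that met those of the other classes for each of these genes.

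Cd44 and Cd27 were met together as often as their shares gave in DN4 γδ+, with a ratio of 0.97 (0.86 to 1.10). Ly6c1 and Ly6d were met together in 19 barcodes of DN4 γδ+, a ratio of 2.20 (1.32 to 3.43), and in 42 of DN3b γδ+, a ratio of 1.35 (0.98 to 1.83). In the other libraries 80.0% to 97.3% of barcodes carried Ly6d, which keeps the ratio close to 1. Ly6c1 and Ly6a had ratios of 3.30 in DN4 γδ+ (2.35 to 4.52), 2.80 in DN4 γδ- (1.78 to 4.21) and 1.68 in DN3b γδ- (1.25 to 2.20).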
